A study of Meriones unguiculatus with 18 samples.

Results

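Transcripts of the translation machinery were examined in liver of the Mongolian gerbil (Meriones unguiculatus, males). The set held 77 named transcripts out of 13172 assembled transcripts (rows) in the deposited table, of which 3767 had a name. A row was a candidate if its name, in any letter case, began as a cytosolic ribosomal protein (RPL, RPS, RPLP), a mitochondrial ribosomal protein (MRPL, MRPS), an initiation factor (EIF) or an elongation factor (EEF) followed by a digit, which 147 rows did. Of these, 29 rows in fruit fly spelling (RpL, RpS) and 20 in lower case were set aside, and the row with the highest mean was kept for each of the 77 names. The names comprised 53 of the cytosolic ribosome (34 large subunit, 19 small subunit), 4 of the mitochondrial ribosome, 16 initiation and elongation factors, and 4 protein kinases whose names share the prefix. Without regard to letter case there were 72 names, and 68 of the 77 were found in a RefSeq annotation of the gerbil.

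The gerbils, labelled Z:ZCAL, were fed freely on normal feed (ND) or on a diet rich in fat and cholesterol (HFD). Liver was taken after 4 or 16 weeks, which gives 4 groups of 3 libraries. Cholesterol made up 2% of the HFD, bile salt 0.5%, what the label calls lard bile 7% and powdered egg yolk 10%, with ordinary feed as the other 80.5%. Strain background beyond that label, age, genotype and whether a library is 1 animal or a pool are not given in the sources used here, so errors describe the spread between libraries, which may be technical. A further 6 libraries of 8 weeks were left out: across rows, Pearson's r of their log2 values with those of the other 12 libraries was 0.00114 to 0.032, against 0.771 to 0.858 between libraries of 1 group at 4 or 16 weeks. Liver identity was checked on the 3 hepatocyte markers found of 10 listed (ALB, Cps1 and Ass1), whose summed value was 6309 to 37799 across the 12 libraries, out of library totals of 157561 to 157999. All libraries share nearly 1 set of sorted values, so a value reflects a row's rank in its library, equal values recur, and the sequencing depth is unknown.

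A cytosolic ribosome is built from a large and a small subunit, and its proteins are made in near-equal amounts from messages that growth signals through the TOR kinase can hold back or release together. Initiation factors place the small subunit on a message, elongation factors move it along, and eIF2 and TOR pathway kinases set the pace. Mitochondria keep a separate ribosome, whose proteins are encoded in the nucleus and whose rRNAs are encoded in mitochondrial DNA. It translates only the few respiratory chain subunits encoded in mitochondrial DNA. Hepatocytes devote much of their translation to secreted plasma proteins.

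The libraries fell into sets by which rows they contained, and ribosomal names carried this split strongly. A row at the lowest value of a library is called not detected. Of the 77 members, 34 were detected in all 12 libraries (44.2%, against 58.3% of the 3767 named rows and 27.7% of all 13172 rows). Another 18 were detected in the 4 HFD libraries numbered 2 and 3 and in no other (23.4%, against 4.8% of named rows and 2.88% of all rows), 8 in the 6 ND libraries alone (10.4%, against 2.39% and 1.26%), 6 in the 2 HFD libraries numbered 1 alone (7.79%, against 2.71% and 1.19%) and 3 in the ND libraries and the HFD libraries numbered 1 (3.9%, against 1.17% and 0.433%). The last 8 had other patterns. These library sets (ND, HFD numbered 1, HFD numbered 2 and 3) occurred at both times, and the ND libraries form a set of their own. Diet and library set therefore cannot be told apart for any member, the 34 detected in all libraries included. The split between the HFD libraries numbered 1 and those numbered 2 and 3 lies between libraries of the same diet. What set the patterns was not tested.

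**Figure D1:**
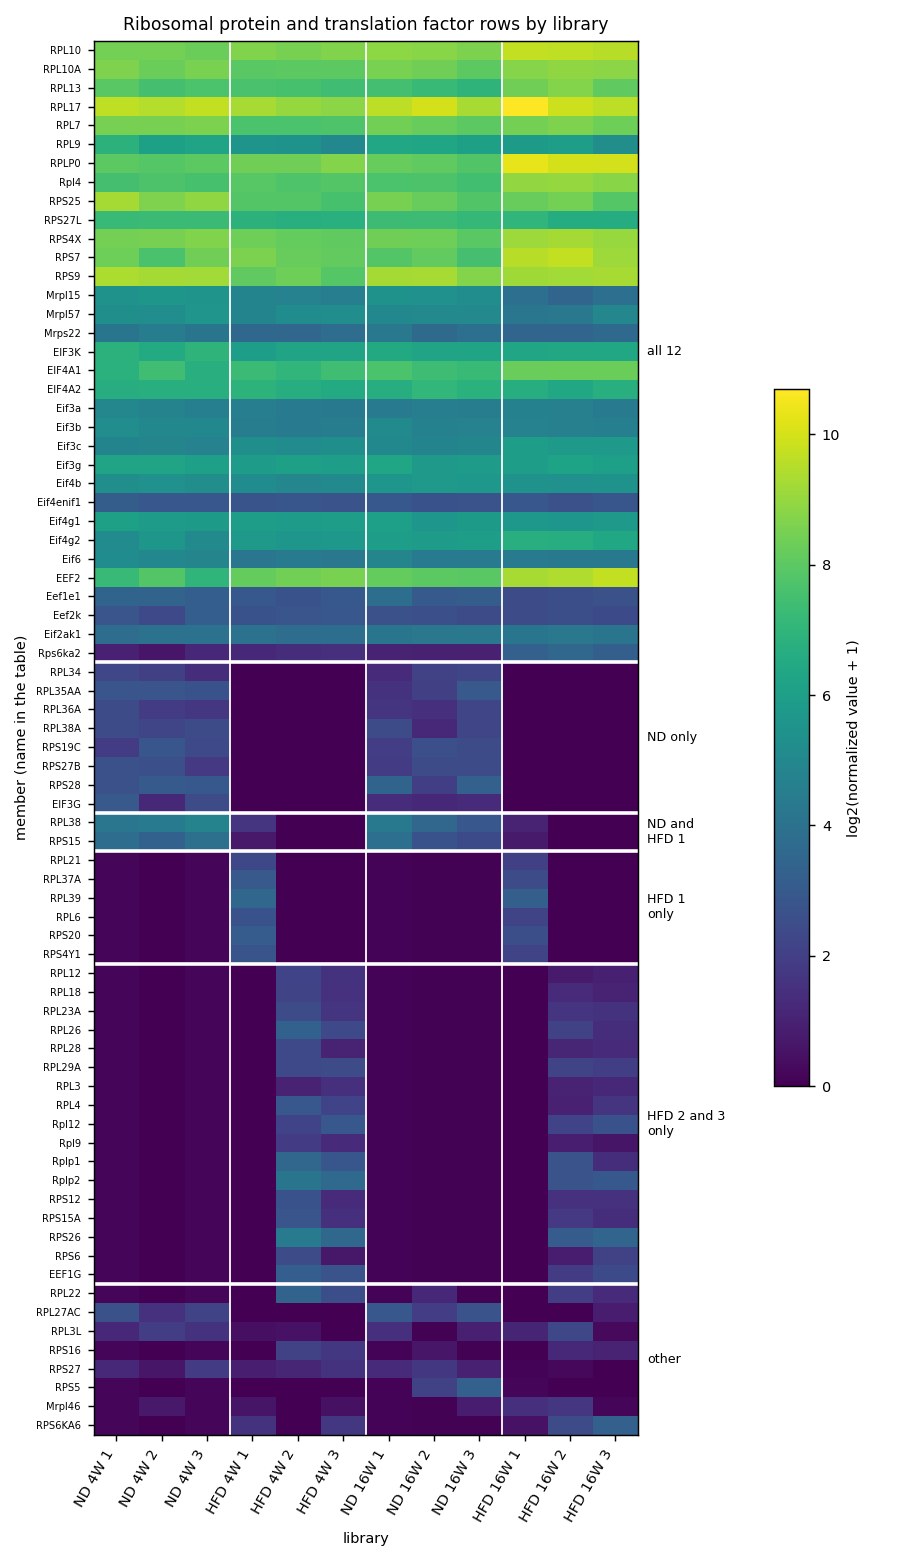
Log2(normalized value + 1) of 74 of the members (rows, named as in the table) in the 12 libraries of 4 and 16 weeks (columns), in blocks by the libraries in which a row was detected. The 33 rows of the top block are filled in every library, whereas the 17 rows drawn that were detected in HFD libraries 2 and 3 alone, the 8 of ND alone and the 6 of HFD library 1 alone are dark elsewhere.

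Detection of the kept rows differed between the cytosolic ribosome and the rest of the machinery. Of the cytosolic ribosomal names 14 of 53 were detected in all 12 libraries, compared with 14 of 16 translation factors, 3 of 4 mitochondrial ribosomal proteins and 3 of 4 kinases. Between 27 and 29 cytosolic names were detected in an ND library, 25 or 26 in the HFD libraries numbered 1 and 34 or 35 in the other HFD libraries. Of all 13172 rows, 3910 to 5273 were not detected in an ND library. This number was 2627 and 2053 in the HFD libraries numbered 1 and 2124 to 3012 in the other HFD libraries. The lowest value was 0.0236 to 0.141 in the ND libraries and 0 in the HFD libraries, so detection is not alike between the diets. The rows that were set aside split in the same manner: 28 of the 29 in fly spelling were detected in HFD libraries 2 and 3 alone, and of the 20 in lower case 12 were detected in the HFD libraries numbered 1 alone and 7 in HFD libraries 2 and 3 alone. The last of these 20, rpl24, was detected in all 12. All of these counts are of rows and not of genes. Letter case ignored, 30 of the 35 names with several matching rows had rows of several detection patterns.

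Members detected in HFD libraries 2 and 3 alone had low values. The kept row of RPS26, a small subunit protein, was not detected in any ND library or in the HFD libraries numbered 1. It had values of 20.7 and 11.1 at 4 weeks and 7.64 and 10.1 at 16 weeks in the HFD libraries numbered 2 and 3. Rplp2, an acidic protein of the stalk that recruits elongation factors, had 16.6, 11.5, 5.76 and 6.77 in the same 4 libraries. These had the highest means of the 18 rows of that set, which also included names of proteins at the core of the ribosome such as RPL3, which lies near the peptidyl transferase centre, and RPS6, a substrate of S6 kinase. RPL3 reached 1.11, 1.77, 1.1 and 1.31 in those libraries, and RPS6 4.54, 0.627, 0.779 and 3.27. Rplp1, the partner of Rplp2 in the stalk, had 10.4, 6.28, 5.69 and 1.60. In each of these rows 1 of the 3 HFD libraries at either time stood at its lowest value, as did every ND library. Letter case ignored, RPS26 and RPS6 each have another matching row, detected in the HFD libraries numbered 1 alone.

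RPL38 and RPS15 had the opposite pattern. RPL38, a small protein at the surface of the large subunit, had values of 17.5, 19.5 and 26.8 in ND at 4 weeks and 19.2, 10.6 and 6.44 at 16 weeks, against 2.06, 0 and 0 in HFD at 4 weeks and 1.01, 0 and 0 at 16 weeks. RPS15, near the decoding site, had 13.1, 8.95 and 14.4 in ND at 4 weeks and 14, 5.42 and 4.27 at 16 weeks, against 0.654, 0 and 0 in HFD at 4 weeks and 0.724, 0 and 0 at 16 weeks. In both the diets did not overlap, the HFD libraries numbered 1 kept a low value and those numbered 2 and 3 were listed at 0. Their log2 fold changes, on the log2(value + 1) scale used throughout, were -3.92 and -3.45 at 4 weeks and -3.25 and -2.73 at 16 weeks, given as descriptions. RPS15 has another row, detected in HFD libraries 2 and 3 alone. RPL38 has another row as well, with a detection pattern outside those named above.

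The 8 names whose kept row was detected in ND libraries alone were RPL34, RPL35AA, RPL36A, RPL38A, RPS19C, RPS27B, RPS28 and EIF3G. These rows were listed at 0 in all 6 HFD libraries. RPS28, the highest of them, had 5.31, 7.19 and 6.69 in ND at 4 weeks and 9.79, 2.93 and 8.81 at 16 weeks. RPL35AA had 6.00, 6.00 and 5.47 at 4 weeks and 1.97, 3.03 and 6.82 at 16 weeks. RPL38A had 4.49, 3.71 and 4.47 at 4 weeks and 4.37, 1.37 and 3.75 at 16 weeks. No HFD library overlapped with an ND library in these rows, and neither RPL35AA nor RPL38A is in the gerbil annotation. RPS19C, with 2.63, 6.27 and 4.10 at 4 weeks and 2.80, 5.16 and 4.42 at 16 weeks, and RPS27B, with 5.33, 5.05 and 2.38 and then 2.72, 4.42 and 4.60, are outside the annotation as well, whereas RPL34, RPL36A, RPS28 and EIF3G are in it. Eif3g, a row from the same assembled cluster as EIF3G, was detected in all 12 libraries with a mean of 66.1. Letter case ignored, RPL34 and RPL36A each have another row, detected in HFD libraries 2 and 3 alone. A row had to have a mean of at least 1 over the 12 libraries to be tested, which 62 of the 77 members had; the 8, RPL38 and RPS15 passed through ND and therefore had to differ, so their calls as lower are no evidence on the machinery as a whole.

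Summed over each class, the cytosolic and the mitochondrial ribosome differed in how their share of a library ran with diet. The 53 cytosolic ribosomal names made up 3.23% ± 0.259 of a library's summed value in ND and 2.43% ± 0.095 in HFD at 4 weeks (mean ± SD, n = 3 each), and 2.86% ± 0.452 in ND and 4.89% ± 0.476 in HFD at 16 weeks. The HFD libraries were thus all below ND at 4 weeks, with a highest share of 2.54% in HFD against a lowest of 2.96% in ND, and all above ND at 16 weeks, with a lowest of 4.35% in HFD against a highest of 3.12% in ND. The 4 mitochondrial ribosomal names made up 0.0667% ± 0.00348 in ND and 0.0446% ± 0.00232 in HFD at 4 weeks, and 0.0552% ± 0.00297 and 0.0295% ± 0.00475 at 16 weeks, lower in every HFD library than in every ND library of the same time. For the 16 translation factors the shares were 0.546% ± 0.0534 and 0.621% ± 0.0274 at 4 weeks, where the diets overlapped, and 0.623% ± 0.0471 and 1.01% ± 0.0679 at 16 weeks, where they did not. These sums are descriptions and were not tested.

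**Figure D2:**
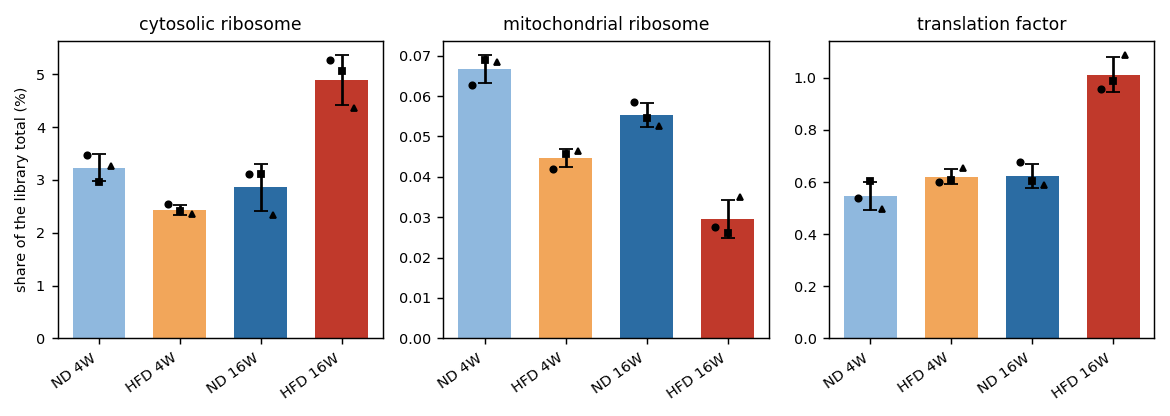
Share of each library's summed normalized value (y axis, %) held by the 53 cytosolic ribosomal, 4 mitochondrial ribosomal and 16 translation factor names, by group (x axis). Bars are means, error bars SD over 3 libraries, and circles, squares and triangles the libraries numbered 1, 2 and 3; the cytosolic share is lowest in HFD at 4 weeks and highest in HFD at 16 weeks, while the mitochondrial share is lower in HFD at both times.

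The early comparison, of HFD and ND libraries taken at 4 weeks, asked which components already differed, and the called cytosolic ribosomal proteins were lower. Of the 14 detected in all libraries, 4 were called as lower (RPS25, RPS9, RPL9 and RPL7) and 0 as higher by limma; at an unadjusted p under 0.05 the numbers were 6 and 1. Over all 34 members detected in all libraries 9 were lower and 2 higher, and over the 62 tested members 21 and 2. Of those 21, 12 were members not detected in all libraries. In the background, 9.03% of the 3377 tested rows detected in all libraries were called as lower and 7.23% as higher, and of all 9487 tested rows 7.22% and 4.89%. The median log2 fold change of the 14 cytosolic proteins was -0.42, against -0.11 for the 3377 rows. Without the library ND 4W 1 the 9 lower calls became 5; the 2 higher calls became 0 without HFD 4W 3, ND 4W 1 or ND 4W 3 and 1 without HFD 4W 1. With the HFD libraries numbered 2 and 3 left out, which leaves 1 library in each HFD group that is assumed to vary like the others, 0 were lower and 0 higher (limma).

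RPS25, a small subunit protein at the head of the subunit, had 610.2, 391 and 487 in ND and 226, 226 and 191 in HFD at 4 weeks. RPS9, which lines the channel where messages enter, had 658, 610.2 and 588 in ND and 269.7, 322 and 234 in HFD. Neither pair of groups overlapped, and the log2 fold changes were -1.19 (SE 0.25, limma Benjamini-Hochberg adjusted p = 0.00899) and -1.18 (SE 0.23, limma adjusted p = 0.00622). Letter case ignored, RPS9 has 6 matching rows, 2 of them detected in all 12 libraries. All results given for RPS9 are those of the row with the highest mean alone. RPL7, of the large subunit, had 363, 358 and 381 in ND and 204, 200.5 and 215 in HFD (log2 fold change -0.83, SE 0.18, limma adjusted p = 0.0107). RPL9, at the base of the stalk, had 115, 67.4 and 74.7 in ND and 45.8, 42.6 and 30.8 in HFD, a difference called overall (log2 -1.07, limma adjusted p = 0.0134) but not without HFD 4W 3 (adjusted p = 0.0604) or ND 4W 1 (0.0528). RPL9 has a second row from the same assembled cluster, also detected in all 12 libraries, with which it may share reads. That row had 19.8, 12.1 and 17.5 in ND and 2.34, 1.63 and 1.11 in HFD at 4 weeks, in the same direction. The other 10 did not pass, with log2 fold changes from -0.59 for RPL17, beside the tunnel exit, to 0.52 for RPLP0.

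In the same comparison at 16 weeks, 7 of the 14 cytosolic proteins detected in all libraries were called as higher on HFD. RPS27L alone was called as lower. In the background 22.2% of the 3377 rows detected in all libraries were called as higher and 27% as lower, and of all 9487 tested rows 15.3% and 19.9%. The median log2 fold change of the 14 was 0.71, against -0.15 for the 3377 rows. Those higher included RPLP0, RPS7, Rpl4, RPL13, RPS4X and RPL10, in order of size. Over all 34 members 12 were higher and 4 lower, and over the 62 tested members 13 and 18. Of those 18, 14 were members not detected in all libraries. Leaving out any single library kept the number higher among the 34 at 12 or 13, and with the HFD libraries numbered 2 and 3 left out it was 8; the 4 lower calls became 2 without HFD 16W 2 or ND 16W 1.

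RPLP0, the protein on which the stalk is anchored, had 295, 269.7 and 218 in ND and 1263, 1031 and 991 in HFD at 16 weeks, against 255, 237 and 255 in ND and 328, 335 and 414 in HFD at 4 weeks. Its mean at 16 weeks went from 261 ± 39.2 to 1095 ± 147 (mean ± SD, n = 3 each). This is a log2 fold change of 2.07 with an SE of 0.20 (limma adjusted p = 2.5e-05). This was the largest rise among the called ribosomal proteins, with every HFD library at 16 weeks above all 9 others. At 4 weeks the HFD libraries were also all above ND, by less and without a call (log2 0.52, limma adjusted p = 0.13).

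RPS7, a small subunit protein needed for processing of its rRNA, had 229, 282 and 187 in ND and 756, 842 and 557 in HFD at 16 weeks (log2 1.62, SE 0.27, limma adjusted p = 0.00083). Rpl4, which lines the exit tunnel, had 200.5, 207 and 174 in ND and 504, 516 and 445 in HFD (log2 1.33, SE 0.16, limma adjusted p = 9.14e-05). In both genes every HFD library of 16 weeks was above every ND library. At 4 weeks RPS7 had 322, 197 and 335 in ND and 381, 292 and 282 in HFD, with overlap, and Rpl4 had 187, 207 and 191 in ND and 243, 215 and 226 in HFD, without overlap; neither was called (limma adjusted p = 0.725 and 0.395).

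RPL13, of the large subunit, had 178, 150.5 and 121 in ND and 328, 420.4 and 273 in HFD at 16 weeks (log2 1.17, limma adjusted p = 0.00122). RPL10, which joins the large subunit last and lies close to the catalytic centre, had 474, 445 and 381 in ND and 842, 823 and 756 in HFD (log2 0.90, limma adjusted p = 0.00392). RPS4X, a small subunit protein with a near copy on the Y chromosome in primates, had 328, 318 and 249 in ND and 557, 610.2 and 528 in HFD (log2 0.93, limma adjusted p = 0.00274). A second row of RPS4X, also detected in all 12 libraries, had 23.7, 14.5 and 17.2 in ND and 8.89, 13.2 and 10.8 in HFD at 16 weeks. It was lower on HFD without overlap, opposite to the first row. In each of the 3 genes the lowest HFD library was above the highest ND library of 16 weeks.

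RPS27L, a paralogue of RPS27 that p53 induces, went the other way, with 159, 159 and 138 in ND and 129, 97.3 and 97.3 in HFD at 16 weeks. Its log2 fold change was -0.50 (SE 0.15, limma adjusted p = 0.0215), and this call was lost under 8 of 23 alternatives, among them leaving out HFD 16W 2 or 3 or ND 16W 1 or 2. At 4 weeks the values were 147, 156 and 154 in ND and 117, 105 and 110.2 in HFD, not called (log2 -0.46, limma adjusted p = 0.0681). RPS27L was thus below ND in every HFD library at both times. None of the 4 genes lower at 4 weeks was called at 16 weeks. RPS9 then had 610.2, 627 and 420.4 in ND and 572, 588 and 627 in HFD (limma adjusted p = 0.688), and RPS25 358, 292 and 222 in ND and 298, 353 and 234 in HFD (0.94). RPL7 had 344, 295 and 252 in ND and 353, 398 and 318 in HFD (0.262), and RPL9 82.2, 80.3 and 66.4 in ND and 55.4, 61.8 and 38.0 in HFD (0.084). In RPS9, RPS25 and RPL7 the diets overlapped at 16 weeks, and in RPL9 they did not. Ribosomal proteins have many near-identical processed copies in mammalian genomes, so reads may be shared with copies in the assembly.

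**Figure D3:**
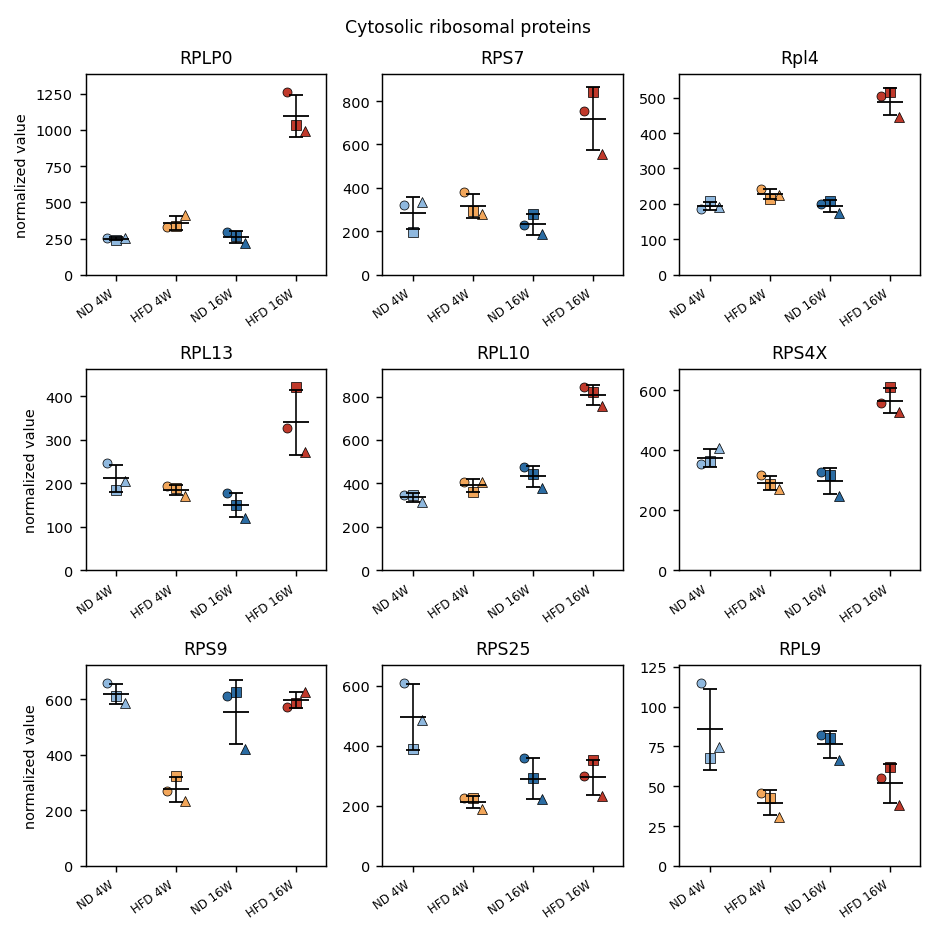
Normalized value (y axis, linear from 0) of 9 cytosolic ribosomal proteins by group (x axis). Points are libraries numbered 1 (circle), 2 (square) and 3 (triangle), and the line and bars give mean and SD; RPLP0, RPS7, Rpl4, RPL13, RPL10 and RPS4X stand highest in HFD at 16 weeks, whereas RPS9, RPS25 and RPL9 are lowest in HFD at 4 weeks.

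Whether the diet effect itself differed between the 2 times was tested as an interaction. Of the 14 cytosolic proteins 10 had a diet effect that was shifted upwards (towards higher on HFD) at 16 weeks against 4 weeks and 0 one shifted downwards (limma; at an unadjusted p under 0.05 the numbers were 11 and 0), with a median difference of 1.16 on the log2 scale. Among the 3377 rows detected in all libraries 9.95% differed upwards and 8.94% downwards, with a median of 0.03; over all 9487 tested rows it was 5.5% and 4.61%. The largest differences among cytosolic proteins were 1.55 for RPLP0 (SE 0.29, limma adjusted p = 0.00777), 1.44 for RPS7 and 1.36 for RPL13. Of the genes lower early, RPS9, RPS25 and RPL7 had called differences of 1.31, 1.22 and 1.1, and RPL9 did not pass (0.50, limma adjusted p = 0.422). Over all 34 members the count was 12; it was 7 without HFD 4W 1, HFD 4W 2 or ND 16W 3, 6 without ND 4W 1, 4 without both HFD libraries numbered 1 and 0 without those numbered 2 and 3. The call of RPS25 was lost under 14 of 22 alternatives, that of RPL10A under 13, that of RPS7 under 12 (adjusted p = 0.0531 with the replicate number as a block) and that of Mrpl15 under 11.

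Time on the diet was also compared within each diet, which does not cross the library sets. In HFD, 10 of the 14 cytosolic proteins rose from 4 to 16 weeks and 0 fell (limma; 11 and 0 at an unadjusted p under 0.05), with a median log2 change of 0.92, whereas 15.6% of the 3377 rows detected in all libraries rose and 15.8% fell, with a median of -0.07 (9.19% and 7.78% of all tested rows). RPLP0 changed by log2 1.61 (SE 0.20, limma adjusted p = 0.000324), RPS7 by 1.17, RPS9 by 1.12, Rpl4 by 1.09 and RPL10 by 1.04. In ND, 0 of the 34 members changed (limma; 4 up and 4 down at an unadjusted p under 0.05), where the background was 0.474% of the 3377 rows and 0.379% of all tested rows. Over the 34 members in HFD 17 changed, 16 of them upwards. This count was 10 without the HFD libraries numbered 1 at both times and 1 without those numbered 2 and 3.

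The called proteins of the mitochondrial ribosome were lower on HFD at each time. Mrpl15, of its large subunit, had 43.3, 49.6 and 44.8 in ND and 27.7, 25.6 and 23.1 in HFD at 4 weeks. At 16 weeks it had 42.8, 41.9 and 36.5 in ND and 13.9, 10.2 and 13.8 in HFD. It was lower on HFD at both times without overlap (log2 -0.83, SE 0.14, limma adjusted p = 0.0033 at 4 weeks; log2 -1.61, SE 0.14, limma adjusted p = 1.2e-05 at 16 weeks). Its fall deepened, with a difference of diet effects of -0.78 (limma adjusted p = 0.0309; 0.0515 with the replicate number as a block, and 0.0566 to 0.0746 without any 1 of 7 libraries), and within HFD it fell from 4 to 16 weeks (log2 -0.96, limma adjusted p = 0.000774).

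Mrps22, of the mitochondrial small subunit, had 16.7, 21.3 and 16.9 in ND and 10.9, 10.7 and 13.0 in HFD at 4 weeks, and 18.3, 11.9 and 13.8 in ND and 10.2, 10.3 and 11.6 in HFD at 16 weeks. It was called as lower at 4 weeks (log2 -0.62, limma adjusted p = 0.035) but not at 16 weeks (-0.40, adjusted p = 0.0868, limma). Mrpl57, the other large subunit protein, had 38.6, 37.1 and 46.1 in ND and 27.2, 35.8 and 36.5 in HFD at 4 weeks, and 31.0, 32.2 and 31.8 in ND and 17.5, 18.5 and 29.7 in HFD at 16 weeks, called as lower at 16 weeks alone (log2 -0.55, limma adjusted p = 0.0451). The early call of Mrps22 was lost under 11 of 23 alternatives, each of the 6 libraries of 4 weeks left out in turn among them, and the late call of Mrpl57 under 14 of 23, whereas both calls of Mrpl15 held without any single library. Mrpl46 was detected in 7 of 12 libraries at values of at most 2.27 and was not tested. With 3 members, the class medians of -0.62 at 4 weeks and -0.55 at 16 weeks are descriptions, set beside -0.42 and 0.71 for the cytosolic class.

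Among factors, EEF2, the translocase that moves the ribosome along the message, was higher on HFD at both times. It had 150.5, 224 and 128 in ND and 286, 338 and 369 in HFD at 4 weeks, and 286, 255 and 246 in ND and 627, 693 and 842 in HFD at 16 weeks. No diet groups of the same time overlapped. A second, low row of the same name had 5.05, 4.77 and 4.46 in ND and 1.54, 0 and 0 in HFD at 4 weeks. At 16 weeks it had 3.94, 1.89 and 1.71 in ND and 0.707, 0 and 0 in HFD. This is the opposite direction. The log2 fold change of the first row was 1.01 at 4 weeks (SE 0.23, limma adjusted p = 0.0149) and 1.45 at 16 weeks (SE 0.23, limma adjusted p = 0.000653). The early call was lost without HFD 4W 3, ND 4W 1 or ND 4W 3 (limma adjusted p = 0.0634, 0.0605 and 0.065), while the late one held under every alternative run. Its inhibitory kinase, Eef2k, was not called at either time (5.33, 5.11 and 4.65 in ND and 4.58, 5.0 and 4.22 in HFD at 16 weeks, limma adjusted p = 0.71).

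Of the 12 initiation factors detected in all libraries 3 were higher on HFD at 16 weeks and 0 lower (limma, and the same numbers at an unadjusted p under 0.05), beside 22.2% and 27% of the 3377 rows. EIF4A1, the helicase that unwinds message leaders, had 204, 164 and 152 in ND and 304, 308 and 308 in HFD (log2 0.83, SE 0.20, limma adjusted p = 0.00807), without overlap. Its close paralogue EIF4A2 had 99.2, 136 and 113 in ND and 100.4, 84.2 and 107 in HFD and was not called (log2 -0.25, limma adjusted p = 0.259); the 2 may share reads. Eif4g2, a scaffold that acts without the cap-binding protein, had 61.8, 57.6 and 62.8 in ND and 105, 101 and 84.6 in HFD without overlap (log2 0.66, limma adjusted p = 0.00721). By contrast Eif4g1, the main scaffold of cap-dependent initiation, had 65.4, 48.0 and 55.0 in ND and 51.3, 48.0 and 53.4 in HFD, with overlap and no call (log2 -0.13, limma adjusted p = 0.484).

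The subunits of eIF3, the large complex that holds the small subunit during initiation, differed among themselves. Eif3c rose at both times, from 27.0 ± 1.5 to 37.6 ± 2.92 at 4 weeks (log2 0.46, limma adjusted p = 0.0241) and from 29.2 ± 1.74 to 55.8 ± 4.18 at 16 weeks (log2 0.91, limma adjusted p = 0.000152; mean ± SD, n = 3 each). Its early call was lost under 8 of 23 alternatives, including without HFD 4W 1, HFD 4W 3, ND 4W 1 or ND 4W 3. The name Eif3c is outside the gerbil annotation. EIF3K had 116, 92.2 and 124 in ND and 62.8, 75.5 and 73.9 in HFD at 4 weeks, and Eif3b 37.2, 31.2 and 30.7 in ND and 22.0, 20.8 and 22.0 in HFD. Both were called as lower then (log2 -0.63 and -0.58, limma adjusted p = 0.0154 and 0.0139) and not at 16 weeks (0.03 and -0.17). The calls were not stable: that of EIF3K was lost without ND 4W 1, ND 4W 3 or HFD 4W 1 and that of Eif3b without ND 4W 1 or HFD 4W 2, and both after median-ratio rescaling (limma adjusted p = 0.0666 and 0.0535). Eif3a and Eif3g were not called at either time, with log2 fold changes of -0.38 and -0.18 at 4 weeks and 0.06 and 0.07 at 16 weeks.

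Eif6, which keeps free large subunits from joining the small one and takes part in lipid synthesis in mouse liver, had 35.5, 30.5 and 28.5 in ND and 17.3, 20.0 and 18.2 in HFD at 4 weeks. The groups did not overlap (log2 -0.73, SE 0.15, limma adjusted p = 0.00771). At 16 weeks it had 27.9, 19.8 and 20.6 in ND and 20.1, 18.9 and 18.9 in HFD, with overlap and no call (log2 -0.21, limma adjusted p = 0.292). Eef1e1, a scaffold of the complex of tRNA synthetases, had 13.6, 7.22 and 7.91 in ND and 4.40, 4.89 and 5.30 in HFD at 16 weeks (log2 -0.80, limma adjusted p = 0.0118). Eif4b, a helper of the helicase, and Eif4enif1, a transporter and repressor of the cap-binding protein, were not called for diet at either time. Within HFD, Eif4b rose from 4 to 16 weeks (log2 0.38, limma adjusted p = 0.0385), which was lost with the replicate number as a block (adjusted p = 0.0685) and under 10 other alternatives, leaving out any HFD library other than HFD 4W 1 among them. For no factor did the diet effect differ between the times (0 of 14 by limma; 5 at an unadjusted p under 0.05, all upwards), beside 9.95% upwards and 8.94% downwards of the 3377 rows.

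Rps6ka2, a kinase of the RSK family that acts downstream of ERK, had the largest rise of all 34 members at 16 weeks. Its values were 1.09, 0.964 and 0.959 in ND and 8.72, 10.4 and 8.45 in HFD, against 1.0, 0.58 and 1.34 in ND and 1.36, 1.62 and 1.74 in HFD at 4 weeks (16 weeks: log2 2.34, SE 0.23, limma adjusted p = 2.21e-05; difference between times 1.94, limma adjusted p = 0.00464). ND values near 1 are low, so that the fold on this scale is understated. RPS6KA6, a kinase of the same family, was not detected in any ND library and had 0.427, 4.52 and 8.79 in HFD at 16 weeks and 1.92, 0 and 2.35 at 4 weeks. It passed the filter on low values through the HFD libraries, so its values are given without a test. Eif2ak1, the haem-regulated kinase that phosphorylates eIF2, had 17.1, 18.1 and 18.7 in ND and 16.9, 17.9 and 16.5 in HFD at 16 weeks and was not called (log2 -0.07, limma adjusted p = 0.692).

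**Figure D4:**
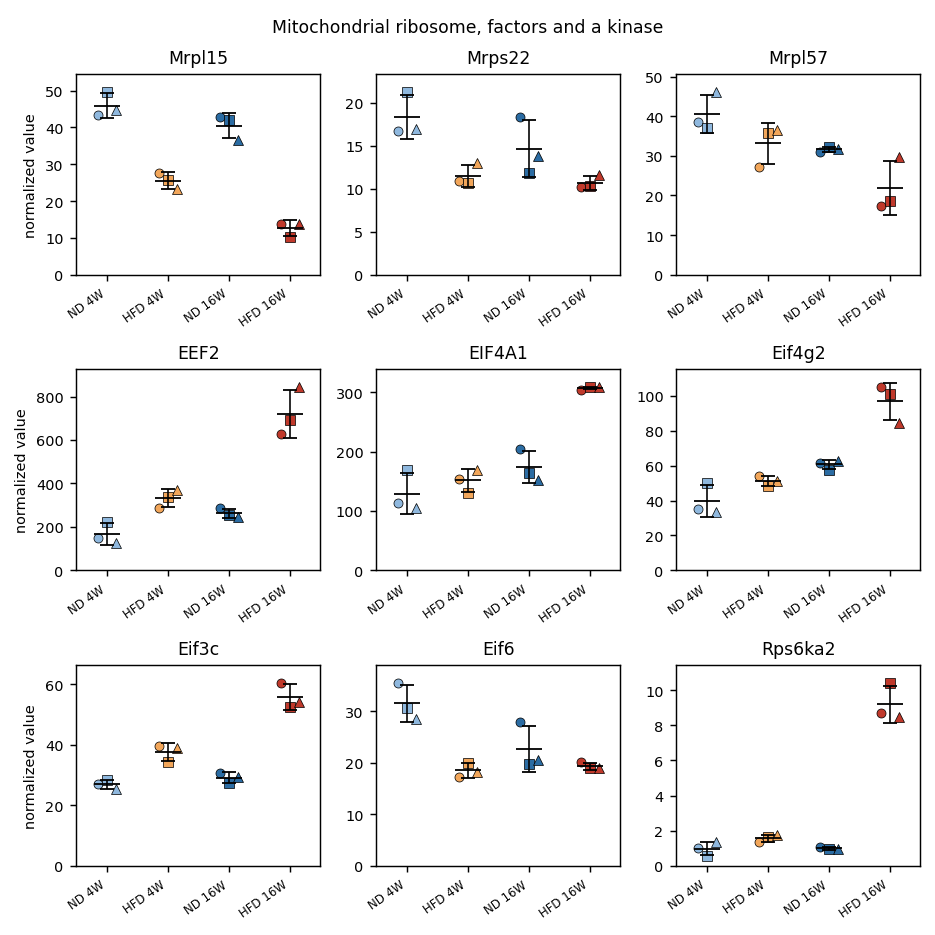
Normalized value (y axis, linear from 0) of 3 mitochondrial ribosomal proteins, 5 translation factors and the kinase Rps6ka2 by group (x axis), drawn as points for the libraries numbered 1 (circle), 2 (square) and 3 (triangle) with mean and SD. Mrpl15 is lower on HFD at both times, EEF2 and Eif3c higher at both, and EIF4A1, Eif4g2 and Rps6ka2 stand apart in HFD at 16 weeks.

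Set side by side, the 2 diet comparisons use different libraries throughout. Of the 34 members 2 were higher at both times (EEF2 and Eif3c), 1 lower at both (Mrpl15), 8 lower at 4 weeks alone, 10 higher at 16 weeks alone, 3 lower at 16 weeks alone and 10 not called at either. No member was called in opposite directions. The share of all tested rows with each pair of calls was not counted, so these numbers describe the members alone. Rescaling the libraries by median ratios moved the median of all tested rows by 0.13 on the log2 scale at both times (from -0.03 to 0.09 at 4 weeks and from -0.12 to 0.01 at 16 weeks). The 34 members then gave 4 higher and 6 lower at 4 weeks and 13 higher and 2 lower at 16 weeks, and no called member changed sign under any alternative run.

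**Figure D5:**
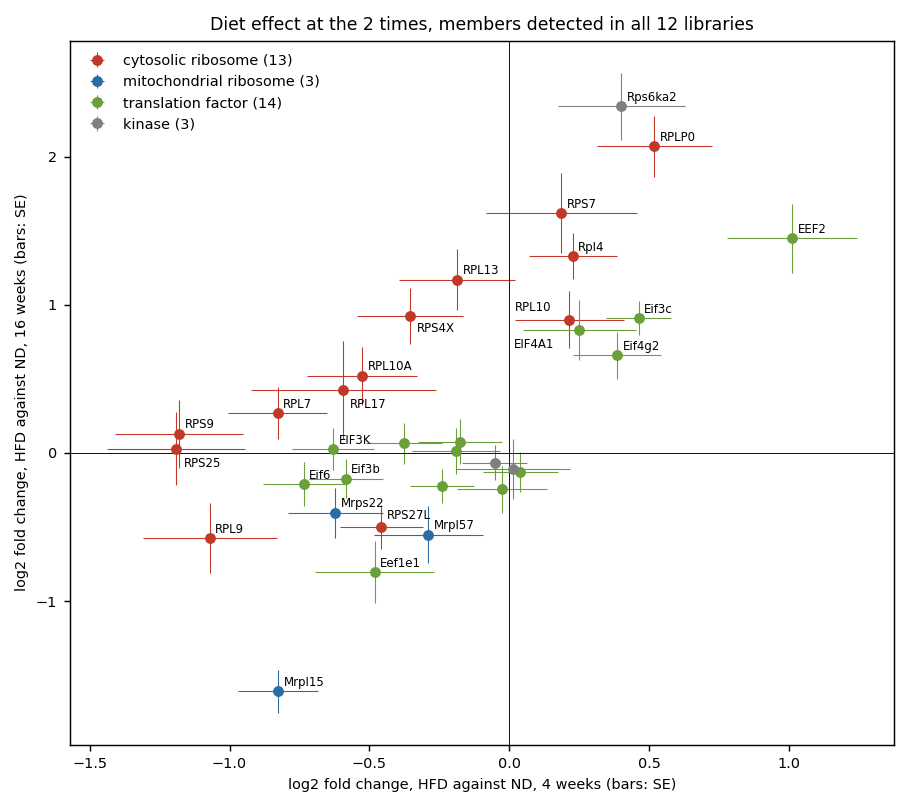
Log2 fold change of HFD against ND at 4 weeks (x axis) and at 16 weeks (y axis) for 33 of the members detected in all 12 libraries, with standard errors as bars and colours for the class. Of the 13 cytosolic ribosomal proteins drawn 11 lie above the horizontal line (all but RPL9 and RPS27L), and Mrpl15, Mrps22 and Mrpl57 below it and to the left.

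Other genes of translation were read from lists of which few members have a named row in the table. Their counts stand beside the shares given above for the 3377 rows, of 7.23% higher and 9.03% lower at 4 weeks and 22.2% and 27% at 16 weeks. With so few genes a list, none is read as standing apart. Of 6 ribosome assembly genes tested (44 listed) 1 was higher and 2 lower at 4 weeks and 2 higher and 2 lower at 16 weeks, with median log2 fold changes of -0.13 and 0.01. Ncl, the nucleolar protein nucleolin, rose at 16 weeks (1.0) and Rrp1 at both times (0.73 and 0.80), whereas Nop16 fell at both (-1.20 and -1.15), as did Nhp2, a protein of the particles that modify rRNA (-0.86 and -0.48). Of 4 tested genes of termination and message binding (18 listed) PABPC1, which coats poly(A) tails, rose at both times (log2 1.20, limma adjusted p = 0.000534, and 2.15, adjusted p = 2.29e-06). NACA, of the complex that shields nascent chains, rose at 16 weeks (0.68, limma adjusted p = 0.00828), and Tpt1 was not called (-0.61 and 0.27).

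Of 3 mitochondrial translation factors (26 listed), Iars2 fell at 4 weeks (log2 -0.50, limma adjusted p = 0.0441) and Yars2 at 16 weeks (-1.02, adjusted p = 0.00138, limma); both charge mitochondrial tRNAs. Neither of 2 cytosolic tRNA synthetases (40 names listed) was called at either time (limma; 0 at an unadjusted p under 0.05). Of 8 TOR pathway genes (28 listed) 0 were called at 4 weeks by limma (0 at an unadjusted p under 0.05), and at 16 weeks Lamtor3, part of the lysosomal anchor of TOR, was higher (0.42) and DEPTOR, which inhibits TOR, lower (-1.0). Of 5 tested targets of the eIF2 kinase pathway (20 listed) 0 were called at 4 weeks by limma (1, upwards, at an unadjusted p under 0.05); at 16 weeks Phgdh (1.91), Ppp1r15a (1.5) and Atf4 (0.86) were higher and SHMT2 lower (-1.63), where Atf4 is the pathway's transcription factor and Ppp1r15a its phosphatase subunit. Ribosomal proteins whose names lie outside the pattern followed the library sets: FAU and gnb2l1 were detected in the HFD libraries numbered 1 alone.

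Markers of cell types differed between the diets as well. The summed value of 4 macrophage markers found of 10 was 31.9 to 47.0 in ND and 1465 to 1841 in HFD at 16 weeks (10.7 to 20.7 and 109 to 135 at 4 weeks), and that of 4 stellate cell markers of 9 was 9.57 to 11.8 and 626 to 1375 (7.82 to 10.2 and 37.1 to 59.8 at 4 weeks). The macrophage sum at 16 weeks was mostly Gpnmb, while Cd68 rose at both times and Cd5l rose at 4 weeks and fell at 16 weeks; all 4 stellate markers rose at 16 weeks. The sum of the 3 hepatocyte markers was 31571 to 35434 in ND and 6309 to 29884 in HFD at 16 weeks (31918 to 37799 and 10959 to 32375 at 4 weeks). That sum was mostly ALB, which stood at the highest value of every ND library. ALB was not called at 16 weeks (log2 -1.38, SE 1.79, limma adjusted p = 0.574). Cps1 (log2 -1.22, limma adjusted p = 0.02) and Ass1 (log2 -2.5, limma adjusted p = 0.0078) were called as lower then. Hba, a haemoglobin chain and the 1 red cell marker found of 5, had 445 to 516 in ND and 693 to 4489 in HFD at 16 weeks (log2 1.9, limma adjusted p = 0.0365) and 842 to 1522 and 445 to 1655 at 4 weeks. Endothelial, bile duct and lymphocyte markers were not analysed here, since 0 of those listed had a named row. The part of cell makeup in any result here was not tested, and in bulk tissue a change in the number of cells of a type and in RNA per cell cannot be told apart. The macrophage and stellate sums were higher on HFD at 4 weeks as well as at 16 weeks.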

How the data were processed

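Liver RNA was sequenced in 18 libraries, of which the 12 of 4 and 16 weeks were used. Per the labels' protocols, Trinity 2.4.0 assembled the reads into transcripts de novo, and Salmon and edgeR are named, with no role, in the submitters' processing notes. The deposited values are a normalized expression signal made by the authors. Which abundance measure went into that normalization is unknown here, and the libraries share nearly 1 set of sorted values, so depth is unknown and no counting interval is given. The protocols count 36 animals (6 to a group) where the design text counts 18.

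Values were analysed as log2(value + 1) with limma 3.58.1 in R 4.3.3 (intensity trend, 4 groups, no covariate) over the 9487 rows with a mean of at least 1, and Benjamini-Hochberg adjusted p-values under 0.05 were called. The fit was also run on simulated data with independent noise and without the library sets, so that run does not bear on the split between them. Some members are counted in the totals but not reported by name here or drawn in the figures. Detection means a value above the library's lowest. Alternatives were a pseudocount of 0.1, no filter, a mean of at least 5, median-ratio scaling, no trend, each time alone, rows summed by name, a term for or removal of library sets, a replicate block and each library left out. Values in every library are given for the largest called changes (up to 8 in a direction where detected in all libraries, otherwise up to 6), the largest differences between times and a panel of well-known members. The members and lists were chosen with earlier results of these data known. Same-numbered libraries deviated together from 4 to 16 weeks in HFD (r of 0.397, 0.180 and 0.117 over rows) and not across diets (r of -0.024, -0.018 and 0.000 at 4 weeks), while HFD libraries 2 and 3 also deviated together across numbers (r of 0.132 and 0.088), so pairing by number and library set cannot be told apart. Names give the authors' best match, read with the RefSeq annotation Bangor_MerUng_6.1, and no sequence was used.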

Additional observations from a re-analysis of the deposited data

Results flagged for a closer look

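For 11 members named here the effect of diet differed between 4 and 16 weeks by the test of the difference itself (limma, adjusted over all tested rows). On the log2 scale the diet effect at 16 weeks minus that at 4 weeks was 1.94 for the kinase Rps6ka2. Among proteins of the large cytosolic subunit it was 1.55 for RPLP0, 1.36 for RPL13, 1.05 for RPL10A, 1.1 for RPL7 and 1.1 for Rpl4. Among those of the small subunit it was 1.44 for RPS7, 1.31 for RPS9, 1.28 for RPS4X and 1.22 for RPS25. Of the 11, the mitochondrial Mrpl15 alone had a difference below 0, of -0.78.

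Of the ribosomal rows in fruit fly spelling, which enter no comparison, 29 were detected in an HFD library, while 0 were detected in any ND library. These detections were in the HFD libraries numbered 2 and 3, and the source of the rows was not tested.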

How the results depend on the processing

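No called member changed sign under any alternative, and with a pseudocount of 0.1 no named member gained or lost a call in the diet comparisons at 4 or 16 weeks. The removal of the HFD libraries numbered 2 and 3, chosen after seeing the data, leaves 1 library in each HFD group. Counts of members detected in all libraries that moved by over 1.5 times were these. Higher at 4 weeks (2) became 1 without HFD libraries numbered 1, with each time alone or without the trend, 4 with median-ratio scaling and 0 without HFD numbered 2 and 3. Lower at 4 weeks (9) became 0 without HFD numbered 2 and 3. Lower at 16 weeks (4) became 2 without HFD numbered 2 and 3, with each time alone, with median-ratio scaling and without the trend. Differences between times (12) became 4 without HFD numbered 1 and 0 without HFD numbered 2 and 3, and changes over time in HFD (17) became 10 and 1. Changes in ND (0) became 1 with a mean of at least 5. Over all 77 members, higher at 4 weeks (2) became 13 without HFD numbered 1, 14 with a term for them, 5 without HFD numbered 2 and 3, 6 with rows summed by name, 4 with median-ratio scaling and 1 with each time alone, without the trend or with gerbil names alone. Lower at 4 weeks (21) became 2 without HFD numbered 2 and 3 and 9 for members detected in all libraries. Higher at 16 weeks (13) became 24 without HFD numbered 1 and 23 with a term for them. Lower at 16 weeks (18) became 9 without HFD numbered 2 and 3, 8 with a mean of at least 5 and 4 for members detected in all libraries. Differences between times (12) became 4 and 0, and changes in HFD (17) became 10 and 1, without HFD numbered 1 and without those numbered 2 and 3. Changes in ND (0) became 1 with a mean of at least 5. With the replicate number as a block, members detected in all libraries gave 2 higher and 8 lower at 4 weeks, 12 and 5 at 16 weeks, 9 differences between times and 17 changes in HFD. Without each library in turn the ranges for members detected in all libraries were 0 to 3 higher and 5 to 10 lower at 4 weeks, 12 to 13 higher and 2 to 4 lower at 16 weeks, 6 to 13 differences, 14 to 18 changes in HFD and 0 to 1 in ND. Over all members they were 0 to 13 and 16 to 22 at 4 weeks (13 without HFD 4W 1), 12 to 17 and 13 to 17 at 16 weeks, 6 to 13 differences, 14 to 18 changes in HFD and 0 to 2 in ND. The cause of these moves was not tested, and some of the fits also hold fewer libraries or rows. Members detected in HFD libraries 2 and 3 alone stand at the lowest value in every other library. Those tested passed the filter through HFD libraries 2 and 3. Any calls of these members as higher, without HFD numbered 1 or with a term for that set, are therefore no evidence on the machinery. Depth is unknown, so what it limits cannot be given.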
